A study of Mus musculus with 24 samples.

Results

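Cdkn1a, Zmat3, Eda2r and Plk2 are 4 genes known as transcriptional targets of the tumour suppressor p53, and they are described here in the tibialis anterior, a fast muscle of the lower hind limb, of mice with and without the histone chaperone gene Hira in their muscle fibres. They were taken by symbol, 1 probe row each, from the 17742 genes with a named row on the array. They were chosen by their known link to p53 with their measured levels in control and knockout muscle in view. The differences between the groups in these 4 genes are therefore given as descriptions, with no p. Control mice had the genotype Myf6 cre/+; Hira flox/+ and knockout mice Myf6 cre/+; Hira flox/-, all on a strain labelled C57BL6/J;129S1/SvImJ and all 6 months old. Both genotypes thus carry a Cre recombinase at Myf6, a gene expressed in differentiated muscle fibres, and differ in the other copy of Hira, which was intact in control animals. That copy was null in every cell of the knockout animals, not only in fibres. The floxed copy is the target of Cre in the fibres of both genotypes. Control fibres are thus meant to keep 1 copy of Hira and are not wild type. There were 4 animals per genotype, each with 3 hybridisations of its RNA, in 24 arrays. The labels name Cy3 in one field and Cy5 in another, so the dye is not settled.

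The values are the authors' linear probe intensities, given here as log2 and averaged over the 3 hybridisations of an animal, so that a difference of 1 is a doubling. The probes differ in brightness, and the level of one gene cannot be set against that of another. The spread given is the SD over the 4 animal means of a group. Tests measure a difference against the spread between animals as moderated by limma over all genes. Each SE is taken from that moderated spread and not from the gene's own SD alone. Since the RNA came from whole muscle, fewer cells of a type and less RNA per cell cannot be told apart. The level of Hira itself was 8.85, 9.11, 8.92 and 8.99 in control animals 1 to 4 and 8.63, 9.30, 8.52 and 8.83 in knockout animals 1 to 4. Knockout animal 2 lay above every control animal, the other knockout animals lay below them, and the difference of -0.15 ± 0.17 (SE) did not pass the test (limma, adjusted p = 0.623). The labels do not place this probe inside or outside the deleted stretch, so its level does not check the genotypes. The 5 measured myofibre markers (Acta1, Ckm, Tnnt3, Tnni2 and Des, of 8 listed) had a summed intensity between 1174900 and 1861840 in the 8 animals.

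p53 is a transcription factor that is held at low activity by the ubiquitin ligase MDM2 and is released by DNA damage, stalled ribosomes, oncogene activity and other stresses. It binds DNA as a tetramer at pairs of short half-sites and raises the transcription of genes for cell cycle arrest, cell death, DNA repair, metabolic adjustment and its own feedback. Several of its targets also respond to other transcription factors, among them p63 and p73. In skeletal muscle, p53 and p21 have been studied in denervation, disuse and ageing. Trp53, the gene for p53, is not analysed here, so the level of its transcript is not set beside that of its targets.

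The promoters of the members are shown first, to let the stretch before each start be read for p53 half-sites. Sites through which p53 acts can also lie farther upstream or in introns, outside these windows. RefSeq promoter windows on GRCm38.p6 were matched by symbol for 3 of the 4 members, in 4 windows, and the 250 bases before each annotated start are printed. Lower case marks the window and capitals mark each match to the 10-base p53 half-site, searched on both strands with overlapping matches counted once. Cdkn1a has windows at chr17:29090729-29090978 and chr17:29093519-29093768, both on the plus strand. Plk2 has a window at chr13:110394794-110395043 on the plus strand and Eda2r at chrX:97377210-97377459 on the minus strand.
Cdkn1a, upstream start: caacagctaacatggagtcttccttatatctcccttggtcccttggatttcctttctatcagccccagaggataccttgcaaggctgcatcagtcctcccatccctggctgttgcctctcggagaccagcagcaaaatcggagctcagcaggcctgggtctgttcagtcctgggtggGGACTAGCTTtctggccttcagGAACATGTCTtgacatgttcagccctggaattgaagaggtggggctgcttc
Cdkn1a, downstream start: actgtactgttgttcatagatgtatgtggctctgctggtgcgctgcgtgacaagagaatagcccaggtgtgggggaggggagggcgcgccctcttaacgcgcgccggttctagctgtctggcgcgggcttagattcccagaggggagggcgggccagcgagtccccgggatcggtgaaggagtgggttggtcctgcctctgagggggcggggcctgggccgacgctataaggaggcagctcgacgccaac
Plk2: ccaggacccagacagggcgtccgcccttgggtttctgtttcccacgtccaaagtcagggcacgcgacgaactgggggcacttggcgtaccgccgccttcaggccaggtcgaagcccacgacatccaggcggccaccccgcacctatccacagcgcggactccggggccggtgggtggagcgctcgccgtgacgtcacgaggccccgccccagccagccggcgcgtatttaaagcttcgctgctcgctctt
Eda2r: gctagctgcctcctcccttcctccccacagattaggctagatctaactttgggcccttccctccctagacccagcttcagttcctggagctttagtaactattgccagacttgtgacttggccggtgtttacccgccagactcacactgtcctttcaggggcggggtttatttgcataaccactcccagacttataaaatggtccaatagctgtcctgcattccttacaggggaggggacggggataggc
The window of the upstream Cdkn1a start holds 2 half-sites, GGACTAGCTT from -73 to -64 and GAACATGTCT from -51 to -42, counted back from the start. The latter is followed without a gap by TGACATGTTC, which differs from the half-site at 1 base, so that 20 bases in a row are 1 base short of a full pair. Of 32851 windows, 7.13% hold at least 1 half-site and 0.259% hold 2 or more. In 25 (0.0761%) a half-site has, directly before or after it, 10 bases with at most 1 mismatch. CATG, which is only 1 of the forms that the core of the half-site can take, occurs in 53.9% of windows. In GGACTAGCTT the core is CTAG. The other 3 windows hold neither the half-site nor CATG, which says only that these letters are not in those stretches. Among the other p53 targets listed for this report, 10 of the 50 with a window hold a half-site (20%), beside 8.20% of the 27025 genes with a window. These matches describe the sequence and do not show binding in these muscles.

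Cdkn1a encodes p21, the inhibitor of cyclin-dependent kinases through which p53 arrests the cell cycle. Its level was 12.48, 12.85, 12.60 and 12.38 in the control animals and 13.06, 13.25, 13.04 and 12.96 in the knockout animals. All 4 knockout animals lay above all 4 control animals, with a gap of 0.10 between the highest control and the lowest knockout animal. The means were 12.58 ± 0.20 (SD, n = 4 animals) and 13.08 ± 0.12, a difference of 0.50 ± 0.13 (SE), or 1.41-fold higher in knockout muscle. On single arrays, 11 of the 12 knockout arrays exceeded every control array. The spread between hybridisations of an animal (SD 0.165) was about that between animal means of a group (SD 0.168). By hybridisation number the difference was 0.59, 0.31 and 0.60, with overlap between the groups in the third alone.

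Zmat3, also called Wig1, encodes a zinc finger protein that binds RNA and acts on mRNA stability and splicing in the p53 response. Its level was 10.31, 10.18, 9.50 and 9.78 in the control animals and 10.53, 10.72, 10.64 and 10.87 in the knockout animals. Here too the groups did not overlap, and the control animals, above all animal 3 at the low end, were spread more widely than the knockout animals. The means were 9.94 ± 0.37 and 10.69 ± 0.14 (SD, n = 4 animals each), a difference of 0.75 ± 0.18 (SE), or 1.68-fold higher in knockout muscle. This was the largest difference of the 4 members, and all 12 knockout arrays exceeded all 12 control arrays. The animal numbers in the sample titles fall into 2 series, each with 2 animals of each genotype. Animals 1 and 2 of a genotype are in the first series, and animals 3 and 4 in the second. The difference was 0.38 in the first series and 1.11 in the second. As the groups did not overlap over all animals, they could not overlap in either series. The part played by the series was not tested.

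Eda2r encodes a receptor of the tumour necrosis factor receptor family for the A2 form of ectodysplasin, and signalling through it is known to promote loss of muscle mass. Unlike the other members it was lower in knockout muscle. Its level was 16.84, 16.74, 16.52 and 16.46 in the control animals and 16.15, 15.89, 16.13 and 15.87 in the knockout animals. The groups did not overlap, and the highest knockout animal lay 0.31 below the lowest control animal, the widest gap of the 4 members. The means were 16.64 ± 0.18 and 16.01 ± 0.15 (SD, n = 4 animals each), a difference of -0.63 ± 0.13 (SE), or 1.55-fold lower in knockout muscle. On single arrays, 11 of 12 knockout arrays lay below every control array. The difference by hybridisation number was -0.62, -0.63 and -0.64, and by number series -0.77 and -0.49. Eda2r lies on the X chromosome and the labels give no sex. The X-linked Xist ranged from 7.25 to 8.13 over the 8 animals and the Y-linked Kdm5d from 10.35 to 10.71, so neither split the animals widely.

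Plk2 encodes a polo-like kinase that acts in centriole duplication and in the response to stress. Its level was 10.96, 10.41, 9.95 and 10.37 in the control animals and 10.81, 11.11, 10.72 and 10.30 in the knockout animals. The groups overlapped, with knockout animal 2 alone above every control animal and knockout animal 4 below 3 of the 4 controls. The means were 10.42 ± 0.42 and 10.73 ± 0.34 (SD, n = 4 animals each), and the difference was 0.31 ± 0.22 (SE). Hybridisations of the same animal lay close together (SD 0.115) while animals of a group were far apart (SD 0.378), so the spread in Plk2 was mainly between animals. The difference by hybridisation number was 0.34, 0.24 and 0.36.

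**Figure D1:**
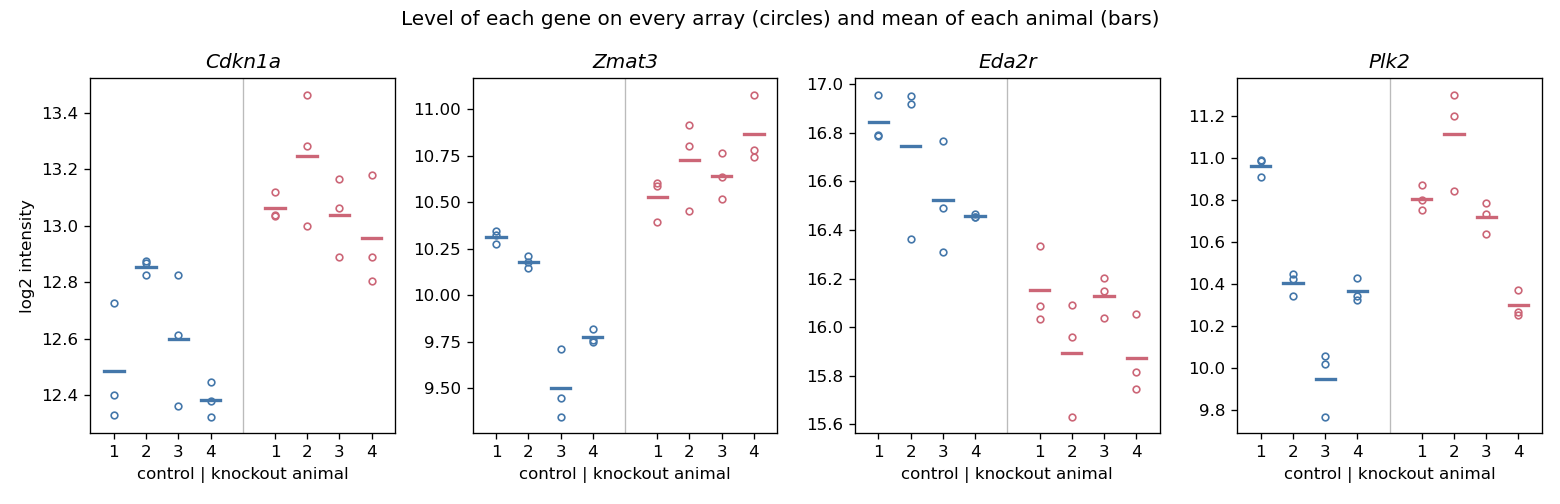
Log2 intensity (vertical axis, own scale in each panel, not starting at 0) of Cdkn1a, Zmat3, Eda2r and Plk2 on every array (circles) and as the mean of each animal (bars), for 4 control (blue) and 4 knockout (red) animals. The knockout bars lie above all control bars for Cdkn1a and Zmat3, below them for Eda2r, and among them for Plk2.

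In 3 of the 4 members, Cdkn1a, Zmat3 and Eda2r, the groups did not overlap, as in 17.5% of all 17742 genes. In the fit over all genes 9.28% passed the threshold of 0.05 on the adjusted p, 4.28% higher and 5.01% lower in knockout muscle. Because the members were chosen with this contrast in view, nothing is read from their count. All 4 members were above an intensity of 125, the level below which a probe was treated as dim, on each of the 24 arrays. The median difference over all genes was -0.066. The members' differences kept their direction under all 23 alternative ways of processing, leaving out any 1 animal included. They lay between 0.43 and 0.59 for Cdkn1a, 0.38 and 1.11 for Zmat3, -0.77 and -0.48 for Eda2r, and 0.16 and 0.49 for Plk2. For Cdkn1a, Zmat3 and Eda2r, whose groups did not overlap, leaving out animals or taking a number series alone could not turn the direction. The other floor, the series as a block and both fits of all arrays could not alter any member's difference. The kept directions are therefore a description. Without control animal 1, the highest control animal for Plk2, that gene's difference was 0.49, and without control animal 3, the lowest, it was 0.16. Knockout animals moved it in the same way, to 0.19 without knockout animal 2, the highest, and to 0.46 without knockout animal 4, the lowest.

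**Figure D2:**
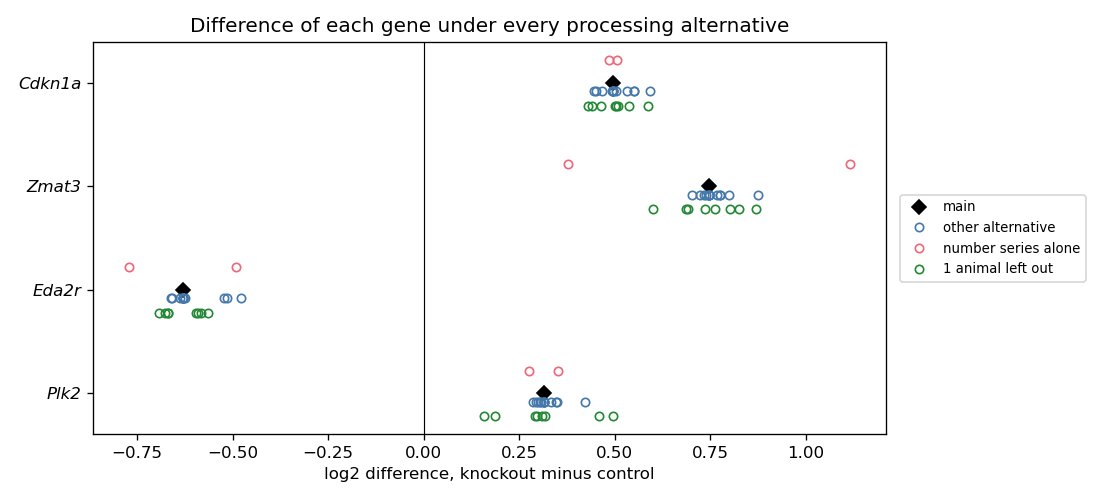
Difference of log2 intensity, knockout minus control (horizontal axis), for each member as reported (black diamonds) and under the alternatives: other normalizations and fits (blue), each number series alone (red) and 1 animal left out (green). Points of a gene stay on 1 side of 0, and those of Zmat3 for the number series alone stand apart at 0.38 and 1.11.

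The members did not order the animals alike. Control animal 1 had the highest control level of Zmat3, Eda2r and Plk2, while control animal 2 had the highest of Cdkn1a. Control animal 3 was lowest in Zmat3 and Plk2. Among the knockout animals, animal 2 was highest in Cdkn1a and Plk2, and animal 4 was lowest in Cdkn1a, Eda2r and Plk2 but highest in Zmat3. Zmat3 and Eda2r both had control animals 1 and 2 above control animals 3 and 4. This is also the split between the first and second number series, whose part was not tested. In the knockout animals their orders were opposite, with animal 4 highest and animal 1 lowest in Zmat3, and animal 1 highest and animal 4 lowest in Eda2r. With 4 animals in a group these orders are a description.

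**Figure D3:**
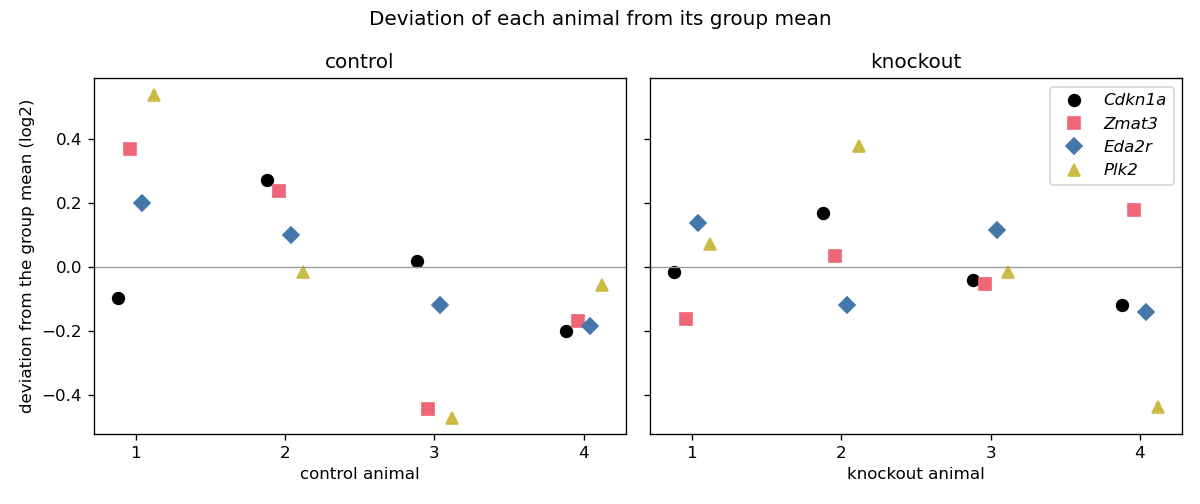
Deviation of each animal from the mean of its group (vertical axis, log2) for Cdkn1a (circles), Zmat3 (squares), Eda2r (diamonds) and Plk2 (triangles) in the control (left) and knockout (right) animals. Plk2 and, in control animals, Zmat3 spread most, and no animal is highest in all 4 genes.

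Patterns like those of the members were sought among 13508 genes above the dim level in all animals, by Pearson correlation over the 8 animal means. For Cdkn1a they were Bcdin3d (0.981), Ssmem1 (0.978) and the matrix protein gene Thbs4 (0.976), and with group means taken off Zbtb39 (0.978), Sipa1l2 (0.972) and Thbs4 (0.969), so Thbs4 stood near the top both ways. For Zmat3 they were Atp1b2 (0.989), Tom1l2 (0.987) and Tcta (0.987), and with group means taken off Morc2a (0.998), Smc5 (0.995) and Ncbp1 (0.994). For Eda2r they were Ctu1 (0.991), Ghrl (0.989) and Frzb (0.986), and with group means taken off Abcf1 (0.996), Atg2b (0.979) and Coil (0.975). For Plk2, whose groups overlapped, the closest were lower, at 0.944 for Tor4a, 0.943 for Ahdc1 and 0.942 for Pgm2l1, and with group means taken off they were Fra10ac1 (0.978), Pxmp4 (0.977) and Taf1c (0.972). None of these genes is on the list of other p53 targets, and the highest of 13508 values is high by selection.

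The other p53 targets were set beside the 4 members. Of 68 listed targets 60 were measured, of which 1 rose, 3 fell and 56 did not pass the test (limma, adjusted p, over all genes). Their median difference was -0.023, beside -0.066 over all genes, with 28 above 0, a range from -1.84 to 0.57, and 12 without overlap between the groups, beside 17.5% of all genes. Those 4 of 60 stand beside the 9.28% of all genes that passed. As the member differences ran from -0.63 to 0.75, Cdkn1a, Eda2r and Plk2 lay within this range and Zmat3 above it. The members were chosen with these differences in view, so nothing is read from their place beside the other targets.

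**Figure D4:**
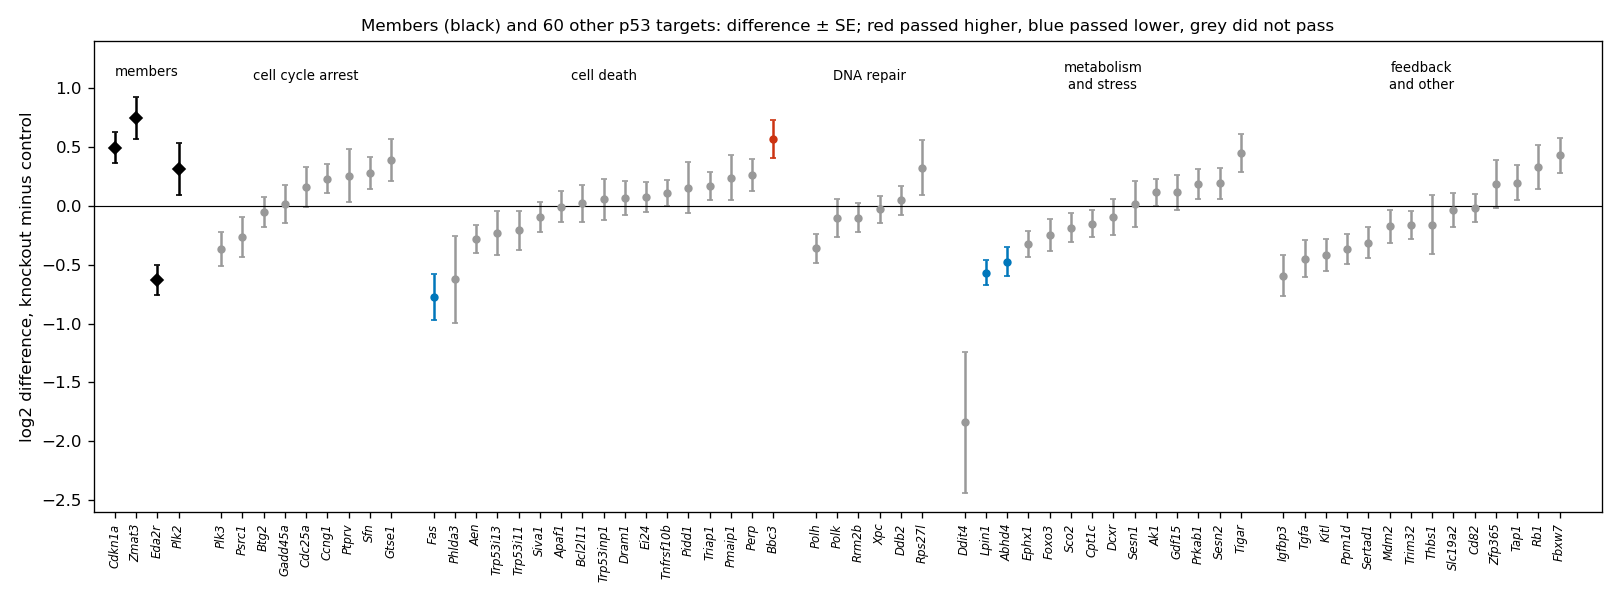
Difference of log2 intensity, knockout minus control, with its SE (vertical axis), for the 4 members (black diamonds) and 60 other p53 targets grouped by role and sorted within a group. Bbc3 rose (red), and Fas, Lpin1 and Abhd4 fell (blue), while the other 56 (grey) lie on both sides of 0.

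None of the 9 other targets for cell cycle arrest passed the test of limma, and their median difference was 0.16. At an unadjusted p under 0.05, 1 was higher and 1 lower in knockout muscle. The share of all genes under that unadjusted p was not counted. It is no smaller than the 9.28% that passed the adjusted test. Counts at that p, here and below, thus have no background beside them, and nothing is read from them. The closest were Plk3, a polo-like kinase like Plk2, at -0.37 (limma, adjusted p = 0.149), and Gtse1, a microtubule-bound inhibitor of p53, at 0.39 (adjusted p = 0.202). Ccng1, for cyclin G1, and Gadd45a, a growth arrest gene also driven by ATF4, were chosen after their values were seen, as well known targets. Ccng1 differed by 0.23 ± 0.13 (SE; limma, adjusted p = 0.284) and Gadd45a by 0.02 ± 0.16 (adjusted p = 0.961).

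Of the 17 measured targets for cell death, 1 rose and 1 fell, with a median of 0.058, beside the 9.28% of all genes that passed. Fas, the death receptor for Fas ligand, was 9.55, 10.10, 9.87 and 9.49 in control and 8.79, 9.23, 8.55 and 9.34 in knockout animals. It fell by 0.78 on the log2 scale (SE 0.20), or 1.71-fold, with no overlap (limma, adjusted p = 0.0334). That call was lost without control animal 1, 2 or 3 or knockout animal 1 or 3, with adjusted p between 0.0252 and 0.0891 over the 8 fits that left out 1 animal. Bbc3, for the BH3-only protein PUMA, was 8.15, 7.92, 7.88 and 8.35 in control and 8.42, 9.03, 8.48 and 8.66 in knockout animals. It rose 1.49-fold, by 0.57 ± 0.16 (SE; limma, adjusted p = 0.0499), but its other probe row differed by -0.29. The call for Bbc3 held only without control animal 4 among those 8 fits (adjusted p from 0.0408 to 0.118).

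No target for DNA repair and nucleotide supply passed among 6 measured, with a median of -0.063, and 1 was lower at an unadjusted p under 0.05. The translesion polymerase gene Polh differed by -0.36 (limma, adjusted p = 0.0972) and Rps27l, for a ribosomal protein, by 0.32 (adjusted p = 0.423). In metabolism and stress, 2 of 14 measured targets fell and none rose, with a median of -0.12. Over all genes 5.01% fell, 4.28% rose and the median was -0.066. Lpin1, for the phosphatidate phosphatase lipin 1, was 16.04, 15.93, 16.04 and 15.96 in control and 15.43, 15.41, 15.55 and 15.31 in knockout animals. It fell by 0.57 on the log2 scale (SE 0.11), or 1.48-fold (limma, adjusted p = 0.0075), and kept its call whichever animal was left out, while its other row differed by -0.34 and the call was lost with the rows averaged. Abhd4, for a lipase of N-acyl phospholipids, fell by 0.47 (SE 0.12), or 1.39-fold, with no overlap (limma, adjusted p = 0.0353). Its call held only without control animal 4 when 1 animal was left out (adjusted p from 0.0364 to 0.0907).

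The widest difference of any listed target was that of Ddit4, also called REDD1, an inhibitor of mTORC1, named after its values were seen. It was 11.95, 14.49, 14.90 and 12.12 in control and 11.05, 11.30, 11.70 and 12.05 in knockout animals. Control animals 2 and 3 stood far above all others, the groups overlapped, and the difference of -1.84 ± 0.60 (SE) did not pass (limma, adjusted p = 0.0818).

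None of the 14 measured targets for feedback and other roles passed, with a median of -0.16. At an unadjusted p under 0.05, 1 was higher and 5 lower. Igfbp3, an insulin-like growth factor binding protein, differed by -0.59 (limma, adjusted p = 0.0588) and Kitl, the ligand of KIT, by -0.42 (adjusted p = 0.0802), both with no overlap. Mdm2, the ligase gene through which p53 limits itself, was named after its values were seen. It was 14.15, 14.07, 13.73 and 13.87 in control and 13.96, 13.51, 13.89 and 13.76 in knockout animals, a difference of -0.17 ± 0.14 (SE; limma, adjusted p = 0.477). The groups overlapped.

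Among 18 measured genes for p53 regulators and relatives, 1 rose and 1 fell, with a median of -0.24. These counts stand beside the 9.28% of all genes that passed. Trp63, for the p53 relative p63, was 10.37, 10.08, 9.86 and 10.02 in control and 10.76, 10.96, 10.74 and 10.65 in knockout animals. It rose 1.62-fold, by 0.70 ± 0.13 (SE; limma, adjusted p = 0.0087), and kept its call whichever animal was left out. Its other rows differed by 0.19 and 0.04, and with the rows of a gene averaged the call was lost (adjusted p = 0.18; over all alternatives 3.95e-05 to 0.18). Atm, the kinase gene that signals DNA breaks to p53, fell by 0.41 (SE 0.11; limma, adjusted p = 0.0396), with -0.71 in its other row. Its call held only without control animal 3 when 1 animal was left out (adjusted p from 0.0468 to 0.109).

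The partners and downstream genes of p21 were set beside the higher Cdkn1a. Counts at an unadjusted p again have no share of all genes beside them. None of 15 measured CDK inhibitors, kinases and cyclins passed, with a median of 0.15, while 3 were higher and 1 lower at an unadjusted p under 0.05. After quantile normalization or cyclic loess 1 rose and 1 fell, and with dim genes filtered out the median turned to -0.026. Cdk2, a kinase that p21 inhibits, differed by -0.46 with no overlap (limma, adjusted p = 0.0624), beside -0.26 in its other row, and Cdkn2a, for the inhibitors p16 and ARF, by 0.50 (adjusted p = 0.124), beside 0.07 in its other row. None of 23 measured genes that p21 represses through the DREAM complex and E2F passed, with a median of 0.023, and here too 3 were higher and 1 lower at an unadjusted p under 0.05. After quantile normalization or cyclic loess, 3 of these genes rose and 1 fell. Of these, the mitotic kinesin gene Kif20a differed by -0.48 (limma, adjusted p = 0.0557) and the proliferation marker Mki67 by 0.58 (adjusted p = 0.071), beside 0.40 in its other row.

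Relatives of Plk2 and Zmat3 were measured in the same way. None of the other 4 polo-like kinases passed, with a median of -0.11 and 1, Plk3, lower at an unadjusted p under 0.05. The next was Plk5 at -0.23 (limma, adjusted p = 0.35). None of the other 4 ZMAT genes passed either, also with a median of -0.11 and 0 at an unadjusted p under 0.05. Zmat5 differed by -0.20 (limma, adjusted p = 0.365) and Zmat4 by -0.13 (adjusted p = 0.712), both opposite in sign to Zmat3.

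Of 16 measured genes for the ligand, sister receptor and signalling partners of Eda2r, 1 fell and none rose, with a median of -0.20. Over all genes 9.28% passed. After quantile normalization 3 fell and the median was -0.093, and after cyclic loess 2 fell and it was -0.089. Traf2, an adaptor of tumour necrosis factor receptors, was 8.79, 8.43, 8.40 and 8.65 in control and 8.04, 7.41, 7.72 and 8.01 in knockout animals. It fell by 0.77 on the log2 scale (SE 0.16), or 1.70-fold, with no overlap (limma, adjusted p = 0.0135), and kept its call whichever animal was left out. Eda, the ligand gene, was named after its values were seen, and differed by -0.08 ± 0.14 (SE; limma, adjusted p = 0.773). Edar, the receptor for the A1 form of the ligand, likewise named after its values were seen, was dim in both groups.

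In muscle wasting ATF4 and GADD45A act on p21 without p53. Of 13 measured genes of that arm, 1 rose and none fell, with a median of -0.055, beside the 9.28% of all genes that passed. After quantile normalization 2 rose and the median turned to 0.056. Ddit3, for the stress factor CHOP, was 13.14, 12.86, 12.65 and 12.65 in control and 13.44, 13.45, 13.18 and 13.27 in knockout animals. It rose 1.42-fold, by 0.51 ± 0.14 (SE; limma, adjusted p = 0.0428), and its call held only without control animal 1 when 1 animal was left out (adjusted p from 0.0236 to 0.111).

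Senescence is the lasting arrest in which p21 takes part. Of 12 measured senescence genes, 2 rose and 2 fell, with a median of 0.20, beside the 9.28% of all genes that passed. Mmp3, for the matrix protease stromelysin 1, was 7.42, 6.95, 7.31 and 8.03 in control and 8.33, 9.38, 9.00 and 9.30 in knockout animals. It rose 2.98-fold, by 1.58 ± 0.26 (SE; limma, adjusted p = 0.0038), and kept its call whichever animal was left out. The control mean of Mmp3, 7.43, lay near the dim level of 6.96, and control animal 2 lay just below that level. Glb1, for lysosomal beta-galactosidase, rose by 0.51 (limma, adjusted p = 0.0229), a call lost without control animal 3 or knockout animal 2, 3 or 4 (adjusted p up to 0.074). Igfbp7, a secreted binding protein, fell by 0.58 on the log2 scale (adjusted p = 0.018), a call lost without control animal 1 or knockout animal 3 (adjusted p up to 0.0598), with -0.38 in its other row. Hmgb2, a chromatin protein gene that is lower in senescent cells, fell by 0.49 on the log2 scale (adjusted p = 0.0239), a call lost without control animal 1 or 3 or knockout animal 1, 3 or 4 (adjusted p up to 0.0826). The other row of Hmgb2 differed by -0.13, and with rows averaged 1 senescence gene fell in place of 2.

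Markers of the cell types in whole muscle were counted in the same fit, beside the 9.28% of all genes that passed. That share is for the adjusted test, and none was counted for the unadjusted p. Of smooth muscle and pericyte markers 3 of 6 fell, with a median of -0.42 and a summed intensity of 35243 to 43969 in control and 25891 to 31081 in knockout animals. For adipocytes 2 of 5 fell, with a median of -0.70, 4 lower at an unadjusted p under 0.05, and sums of 78781 to 100939 against 54375 to 91757. For Schwann cells 1 of 4 fell, with a median of -0.60, 3 lower at that unadjusted p, and sums of 22867 to 32128 against 17873 to 23154. For endothelium 1 of 8 fell, with a median of -0.40, 3 lower at that unadjusted p, and sums of 76479 to 107976 against 52184 to 81848. The 1 measured blood marker, Alas2, fell by 1.04 (2657 to 3698 against 1064 to 2449). In these lists no measured member was above 0, as in the myofibre list below. The median over all genes was itself -0.066, and the share of all genes below 0 was not counted. The marker lists were not run under the alternative ways of processing, so nothing is read from this lean.

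None of 5 myofibre markers passed, with a median of -0.18, none above 0 and 1 lower at an unadjusted p under 0.05 (sums 1389340 to 1861840 against 1174900 to 1740310). None of 7 fibroblast markers passed, with a median of 0.062 and 1 higher and 1 lower at that p (155300 to 230332 against 137453 to 258149). For macrophages 1 of 7 fell, with a median of 0.028, 1 higher and 1 lower at that p, and sums of 7932 to 13395 against 8589 to 20419. For satellite cells 1 of 6 fell, with a median of 0.0014, 1 higher and 1 lower at that p, and sums of 9332 to 11532 against 9528 to 11422. No marker was at the floor in all animals. The part of these marker levels in the lower Eda2r or the higher Cdkn1a and Zmat3 was not tested. The arrays of control animals 3 and 4 in hybridisation 1 had the highest 5th percentiles of intensity (107 and 125, the next being 69.7), and without them the difference was 0.47 for Cdkn1a, 0.73 for Zmat3, -0.66 for Eda2r and 0.29 for Plk2.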

How the data were processed

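Total RNA of the tibialis anterior was hybridised in triplicate for 4 control and 4 knockout animals. The authors deposited 1 linear intensity per array and probe row (26423 rows). Which dye and scanner were used, and how background and scale were handled, is not stated in the labels. The deposited intensities of every array have the median 626, hence a common scale. Tests rest on 4 animals per group.

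Intensities below the 5th percentile of all values (38.8) were set to it and log2 was taken. The 3 hybridisations were averaged per animal, and animals were numbered within a group in deposit order, which pairs nothing. Annotated symbols (20377 rows with 1 symbol, 0 with several, 6046 with none) were updated through RefSeq of GRCm38.p6 (18213 current, 2126 by synonym, 38 kept as annotated). The row with the highest mean stood for a gene. The 8 animal means were fitted with lmFit and eBayes (limma 3.58.1, R 4.3.3), and p-values were adjusted by Benjamini-Hochberg over 17742 genes, with calls under 0.05. A fold is the log2 difference raised to linear scale. A gene no higher than 125 was treated as dim.

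The members and the gene lists were chosen with earlier results of these data known. Members of each list were named by rule: those that passed, up to 4 by smallest p, or the 2 of smallest p where none passed, with Hira and the 3 genes most like each member. The promoter search covered the 250 bases before each start and left out transcribed bases. On simulated data with the spread of this comparison over 17742 genes, the fit recovered 20% of 50 genes changed by 0.5 (log2), 84% at 1, 98% at 2 and 100% at 4, with 7 false among 158 calls. The changed genes were drawn from those more than 1 log2 unit above the dim level. Far fewer genes were changed than the 1647 called in the data, which makes the adjusted threshold stricter. These rates therefore do not carry over directly to the data or to dim genes. Alternatives were other normalizations (quantile, cyclic loess), another floor, an added constant, a filter on dim genes, the mean over rows, the median of hybridisations, single arrays blocked at random by animal, variance trend, array weights, the number series as a block or alone, and leaving out each animal or hybridisation. Leaving out the 2 arrays of highest 5th percentile was added after seeing the data.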

Additional observations from a re-analysis of the deposited data

Results flagged for a closer look

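Of 60 groups of 4 animals examined, 3 had an animal whose gap to the nearest other, as a share of the whole range, was beyond Dixon's critical value, where chance gives about 1 in 20. For the p53 target Rps27l, knockout animal 2 was at 15.82 while the other knockout animals were at 14.76, 14.81 and 14.92 (share 0.854). Knockout animal 2 was also the highest knockout animal for Cdkn1a and Plk2, and without it their differences were 0.44 and 0.19. For Cdk2, the kinase that p21 inhibits, control animal 1 was at 10.78 and the others at 10.27, 10.28 and 10.33 (share 0.885). For Glb1, knockout animal 1 was at 9.97 and the others at 10.26, 10.27 and 10.29 (share 0.912). No group of the 4 members was beyond that value.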

How the results depend on the processing

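The differences of Cdkn1a, Eda2r and Plk2 stayed within 1 SD of the reported values in all 23 alternatives, and that of Zmat3 in 21, the exceptions being 0.38 with the first number series alone and 1.11 with the second. Among these alternatives, the other floor, the number series as a block and both fits of all arrays could not alter the members' differences. No called value reversed. Leaving out 1 animal gave 0.43 to 0.59 for Cdkn1a, 0.60 to 0.87 for Zmat3, -0.69 to -0.56 for Eda2r and 0.16 to 0.49 for Plk2. The count of changed genes, 1647 as reported, was 2567 after quantile normalization, 3609 with array weights, 62 and 508 in the first and second number series alone, where fewer animals were compared, and 945 to 1693 with 1 animal left out (945 without knockout animal 3, 1062 without control animal 1). With all arrays and the animal as a random block it was 3149 with no replicate block and 2978 with the hybridisation number as replicate block. Of the p53 targets, 1 rose and 3 fell as reported. There were 2 and 6 after quantile normalization, 2 and 8 with array weights, 2 and 9 with all arrays, with or without the replicate block, and 0 and 0 in each number series alone. With cyclic loess 4 rose. With an added constant, the mean over rows, the median of hybridisations, the number series as a block, or without hybridisation 1, 2 or 3, 0 rose, and without hybridisation 2, 1 fell. With 1 animal left out, 0 to 1 rose and 1 to 4 fell. In the settings with 0 rises by limma, 2 to 7 targets were higher at an unadjusted p under 0.05, and with 0 falls 8 and 9 were lower. Among the other 13 lists, each count and median moved within a range: for regulators 0 to 2 rose and 0 to 4 fell, for senescence genes 0 to 5 and 0 to 4, and the medians of the cell cycle arrest, cell death, CDK, DREAM, ZMAT and ATF4 lists lay on both sides of 0. The causes were not tested. The median of the targets changed sign among values near 0, from 0.0062 without control animal 1 to -0.067 in the first number series. The 4 members lay above the dim level of 125 on all arrays, and the part of background in their differences was not tested.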
